A study of Mus musculus with 9 samples.

Results

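The small RNA library of embryos that lacked the miR-19 family (ΔmiR-19) was compared with the wild-type library, over all mature miRNAs of the deposited table. Both libraries, 2 of the 9 of the series, were chosen by their genotype labels. Wild type was labelled as carrying the full miR-17~92 cluster and ΔmiR-19 as having miR-19 deleted. The mice came from an allelic series of the cluster, and the other 6 genotypes, with 1 library each, served as the measure of spread. Their names give the families they lack: ΔmiR-17, ΔmiR-18, ΔmiR-92, ΔmiR-17,18, ΔmiR-17,18,92 and the full deletion of the cluster. The remaining library held reads of undetermined genotype and was not used. All 8 genotype libraries came from embryos labelled female at embryonic day 9.5, profiled without the heart and the tail bud, which had been removed. The labels do not say whether mutant embryos carried 1 or 2 mutant alleles, nor how many embryos went into a library. Where miR-17 was deleted, the reads of miR-20a were nearly gone as well. No label names a deletion in the paralog clusters, which run from miR-106a to miR-363 on the X chromosome and from miR-106b to miR-25 on chromosome 5.

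miR-17~92 is transcribed as 1 precursor that holds 6 hairpins. Each hairpin is cut into a 5p and a 3p arm, of which the more abundant (the guide) is loaded into Argonaute and represses messenger RNAs that match its seed, the bases from position 2 to 8. The cluster is known for promoting growth and survival of embryonic and tumour cells. miR-19 is the member best known for tumour promotion in lymphoma models. The 6 hairpins fall into 4 seed families, and miR-19a and miR-19b-1 are the 2 hairpins of the miR-19 family.

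The guides of the deleted family are shown first, because their near-identity bears on what the reads can tell apart. Sequences are from RefSeq with coordinates on GRCm38.p6, a later build than that of the deposited table, and the seed is in capitals.

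miR-19a-3p: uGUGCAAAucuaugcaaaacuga

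miR-19b-3p: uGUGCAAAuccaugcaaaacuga

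Counted from the 5′ end of miR-19a-3p, the only difference between them was U11C, outside the seed. On the plus strand of chromosome 14, miR-19a-3p lies at 115044048 to 115044070. miR-19b-3p is made from Mir19b-1 on chromosome 14 (115044358 to 115044380) and, with the same sequence, from Mir19b-2 of the paralog cluster on the X chromosome (minus strand, 52741991 to 52742013). The hairpins of these loci are shown next, with the shared 3p arm in capitals.

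Mir19b-1: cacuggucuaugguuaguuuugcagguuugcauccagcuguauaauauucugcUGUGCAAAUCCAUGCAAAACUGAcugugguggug

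Mir19b-2: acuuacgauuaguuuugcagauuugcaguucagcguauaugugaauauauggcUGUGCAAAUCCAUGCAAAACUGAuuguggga

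The longest stretch shared by the hairpins was 25 bases, so a read of miR-19b-3p does not identify its locus. The 5p arms differ between the loci and serve as their locus-specific readouts, shown here with the seed in capitals.

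miR-19b-1-5p: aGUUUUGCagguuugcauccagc

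miR-19b-2-5p: aGUUUUGCagauuugcaguucagc

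The guides of the 4 hairpins that ΔmiR-19 kept belong to 3 other seed families. They are shown because the results on kept arms turn on them.

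miR-17-5p: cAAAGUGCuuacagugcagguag

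miR-20a-5p: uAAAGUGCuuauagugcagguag

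miR-18a-5p: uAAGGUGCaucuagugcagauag

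miR-92a-3p: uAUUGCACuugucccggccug

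From miR-17-5p to miR-20a-5p the differences were C1U and C12U, so both share a seed. In genome order the hairpins run Mir17, Mir18, Mir19a, Mir20a, Mir19b-1 and Mir92-1, so that Mir20a lies between the deleted hairpins and Mir92-1 follows the second of them.

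Wild type held 7070844 reads of mature miRNAs and ΔmiR-19 held 9288294, within the range of 6564461 to 18481223 of the 8 genotype libraries. The unit of level is nRPM (normalised RPM): the deposited value times 1 constant that is the same in all libraries. A single read was worth 0.157 nRPM in wild type and 0.105 nRPM in ΔmiR-19. Neither genotype had a replicate, so every ratio below compares 2 libraries and not 2 conditions. The 95% intervals are exact conditional (Clopper-Pearson) intervals of the read ratio and cover counting error only. Reads from PCR without molecular identifiers are not independent molecules. In libraries of many tissues, fewer cells of a type and less RNA per cell cannot be told apart. Of the heart-enriched miRNAs, miR-208a-3p was low at 6.27 nRPM in wild type, 28.4 nRPM in ΔmiR-19 and 24.7 to 175.5 nRPM in the other 6. Another, miR-499-5p, had 10.3, 52.1 and 18.6 to 60.3 nRPM in the same order. Both were lowest in wild type. miR-1a-3p, which skeletal muscle also makes, did not follow them, with 2485 nRPM in wild type and 2211 nRPM in ΔmiR-19.

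Of the 4 deleted arms, 2 had 0 reads in ΔmiR-19, miR-19a-3p was near 0, and miR-19b-3p kept a residue. Summed over 4 arms, the family stood at 36667 nRPM in wild type and 1556 nRPM in ΔmiR-19, which is 4.24% of wild type (95% interval 4.17 to 4.31). Its share of the library was 3.31% in wild type and 0.159% in ΔmiR-19. Of what remained, 1541 nRPM were miR-19b-3p, the guide that the X-linked locus also makes.

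miR-19a-3p, which has no second locus, was counted with 61428 reads in wild type and 144 in ΔmiR-19. Its level was 9621 nRPM in wild type, 15.1 nRPM in ΔmiR-19 and 3157 to 83047 nRPM in the 5 other libraries that kept it, while the full deletion held 4.93 nRPM. ΔmiR-19 thus held 0.157% of wild type (0.133 to 0.185). For the partner arm of that hairpin, miR-19a-5p, 360 reads in wild type stood against 0 in ΔmiR-19, at least 179-fold lower when 3 reads are taken as the floor. The locus-specific arm miR-19b-1-5p had 609 reads in wild type and 0 in ΔmiR-19, at least 302-fold lower by the same floor. In the 5 other libraries that kept it, miR-19b-1-5p ranged only from 95.6 to 127.3 nRPM, whereas miR-19a-5p ranged from 8.66 to 99.7 nRPM. Both libraries without the family, ΔmiR-19 and the full deletion, lay below every library that kept it for all 4 arms.

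miR-19b-3p had 26894 nRPM in wild type and 1541 nRPM in ΔmiR-19. The full deletion held 2852 nRPM, and the 5 other libraries with the locus held 25168 to 155570 nRPM. ΔmiR-19 kept 5.73% of wild type (5.63 to 5.83) and the full deletion 10.6%, so the residue was smaller in ΔmiR-19. The X-linked arm miR-19b-2-5p, whose locus no label lists as deleted, stood at 8.29 nRPM in the full deletion, 7.67 nRPM in wild type and 15.4 nRPM in ΔmiR-19. Per miR-19b-2-5p read, 100.3 reads of miR-19b-3p were left in ΔmiR-19 and 344 in the fully deleted library, against 2808 to 11238 in the 6 libraries with both loci. miR-19a-3p amounted to 0.983% of miR-19b-3p in ΔmiR-19, 0.173% in the full deletion and 35.8% in wild type. The shares of the residue that came from the X-linked locus and from miscalled reads were not tested.

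**Figure D1:**
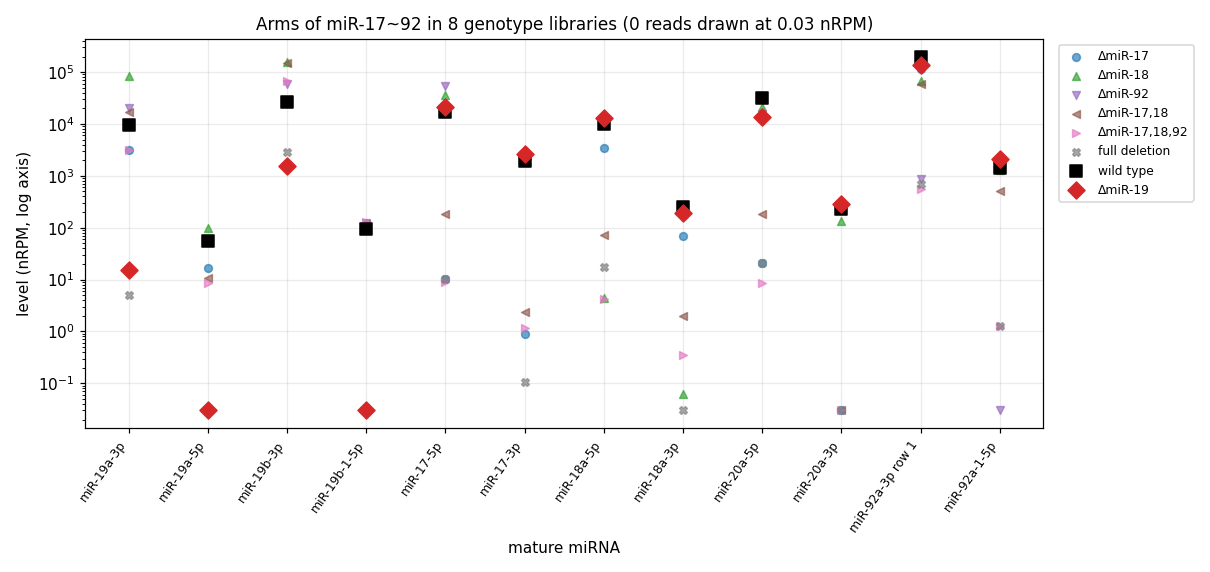
Level of 12 arms of miR-17~92 (horizontal axis) in nRPM on a log axis, 1 point per genotype library, with 0 reads drawn at 0.03 nRPM. Of the 4 miR-19 arms on the left, ΔmiR-19 (red diamonds) has 2 at 0 reads, miR-19a-3p at 15.1 nRPM and miR-19b-3p at 1541 nRPM, while its 8 kept arms lie between 0.448 and 1.45 times wild type (black squares).

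The 8 kept arms of the cluster did not all lie on the same side of wild type. Relative to wild type, 5 stood higher and 3 lower in ΔmiR-19, with log2 ratios from -1.16 to 0.54 and a median of 0.32. That median moved to 0.51 when libraries were scaled to plain read totals, a scaling that moved the median of all miRNAs outside the cluster from 0.05 to 0.23. Summed, the kept arms stood at 261922 nRPM in wild type and 192480 nRPM in ΔmiR-19, 73.5% of wild type. Most of that sum was miR-92a-3p. The whole cluster took 26.96% of the wild-type library and 19.9% of the ΔmiR-19 library.

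miR-20a-5p, a guide of the miR-17 seed family, was the 1 kept arm that differed by 2-fold or more. It had 31072 nRPM in wild type and 13908 nRPM in ΔmiR-19, a ratio of 0.448 (0.444 to 0.451). With plain read totals its log2 ratio was -0.98 in place of -1.16, just short of 2-fold. The other libraries that kept it were ΔmiR-18 with 21107 nRPM and ΔmiR-92 with 15279 nRPM. ΔmiR-19 was thus the lowest of the 4, while wild type was the highest, and the step from ΔmiR-92 to ΔmiR-19 was small beside the range of the 4. Its partner arm miR-20a-3p lay the other way, at 228 nRPM in wild type and 289.99 nRPM in ΔmiR-19. In ΔmiR-18 and ΔmiR-92 that partner arm had 134.4 and 218.5 nRPM, so ΔmiR-19 was the highest of the 4. The ratio of the 5p to the 3p arm of miR-20a was 136.5 in wild type, 48.0 in ΔmiR-19, 69.9 in ΔmiR-92 and 157 in ΔmiR-18.

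miR-17-5p, the guide that shares its seed with miR-20a-5p, stood at 17331 nRPM in wild type and 21450 nRPM in ΔmiR-19, a ratio of 1.24 (1.23 to 1.25). ΔmiR-18 held 36341 nRPM and ΔmiR-92 53720 nRPM, so these libraries, which kept miR-19, lay further above wild type than ΔmiR-19. Its partner arm miR-17-3p had 1954 nRPM in wild type and 2673 nRPM in ΔmiR-19, a ratio of 1.37 (1.339 to 1.398), and ΔmiR-19 was the highest of the 4 libraries that kept it. The 5p to 3p ratio of miR-17 was 8.87 in wild type and 8.03 in ΔmiR-19, both below the 14.7 of ΔmiR-18 and the 27.7 of ΔmiR-92.

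miR-18a-5p, the only guide of its seed in the cluster, had 10099 nRPM in wild type and 12792 nRPM in ΔmiR-19, a ratio of 1.27 (1.25 to 1.28). The other libraries with miR-18a held 3446 nRPM (ΔmiR-17) and 10579 nRPM (ΔmiR-92), which left ΔmiR-19 the highest of the 4. Its partner arm miR-18a-3p stood at 0.755 of wild type (0.706 to 0.808), within the range of the others. The arm ratio of miR-18a went from 39.8 in wild type to 66.7 in ΔmiR-19, above the 50.7 of ΔmiR-17 and the 52.2 of ΔmiR-92.

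miR-92a-3p, the most abundant arm of the cluster, was listed in a higher and a lower row, and the higher was counted with the cluster. That row held 199542 nRPM in wild type and 139080 nRPM in ΔmiR-19, a ratio of 0.697 (0.695 to 0.699). The 3 other libraries that kept miR-92a-1 had 60314 to 116099 nRPM, so wild type was the highest and ΔmiR-19 came next. The locus-specific partner arm miR-92a-1-5p lay the other way, with 1442 nRPM in wild type and 2097 nRPM in ΔmiR-19, a ratio of 1.45 (1.42 to 1.49). ΔmiR-19 was the highest of the 5 libraries that kept this arm, the others lying between 502 and 1679 nRPM. The arm ratio of miR-92a-1 was 138 in wild type and 66.3 in ΔmiR-19, beside 52.6 to 120.2 in the other 3, so wild type and not ΔmiR-19 was at the edge. Over the 8 kept arms, ΔmiR-19 lay above all other libraries with the arm in 4 and below all in 1.

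Counted by seed, 1 of the 4 seeds of the cluster was nearly lost. The GUGCAAA seed of miR-19 was carried by 36515 nRPM in wild type and 1556 nRPM in ΔmiR-19, 4.26% of wild type, while the 5 other libraries with the locus held 28389 to 238617 nRPM. The AAGGUGC seed of miR-18a and miR-18b summed to 16968 nRPM in wild type and 17546 nRPM in ΔmiR-19, 103.4% of wild type. Both lay above the 11675 to 12928 nRPM of the 2 other libraries with miR-18a. The AAAGUGC seed, carried by 6 guides of the 3 clusters, summed to 107165 nRPM in wild type and 94020 nRPM in ΔmiR-19, 87.7% of wild type. Both lay below the 119505 to 138988 nRPM of the 2 other libraries with miR-17 and miR-20a. The AUUGCAC seed of miR-92a, miR-25, miR-363 and their relatives summed to 72.4% of wild type, and 199868 nRPM in ΔmiR-19 lay above the 114087 to 197329 nRPM of the 3 other libraries with miR-92a-1. Ratios of the 3 kept seeds were therefore between 0.724 and 1.03.

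The paralog clusters carry guides of the same seeds. The arms of the X-linked cluster of miR-106a and miR-363, which holds Mir19b-2, summed to 21429 nRPM in wild type and 22407 nRPM in ΔmiR-19, within the 17475 to 42001 nRPM of the other 6. The arms of miR-106b~25, in an intron of Mcm7, summed to 95176 and 84186 nRPM, and ΔmiR-19 was the lowest of the 8 libraries, the others starting at 89934 nRPM. The direction of that sum turned with plain read totals (log2 0.0039 in place of -0.18). Within miR-106b~25, miR-93-5p had 33348 nRPM in wild type and 18904 nRPM in ΔmiR-19, a ratio of 0.567 (0.563 to 0.570), below the 24978 to 76211 nRPM of the other 6. Its neighbour miR-106b-5p, with the same seed, lay the other way at 16824 and 27939 nRPM, a ratio of 1.66 within the other libraries' range of 16758 to 48008 nRPM. In the X-linked cluster, miR-20b-5p stood at a ratio of 1.37 and miR-106a-5p at 1.39, both within the range of the other 6. miR-18b-5p stood at 0.692 with 1096 to 11429 nRPM in the others.

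Outside the cluster, 319 rows of the table averaged 100 nRPM or more. They are counted as 319 miRNAs here and hold 316 distinct names, since miR-181b-5p, miR-194-5p and miR-196a-5p have 2 rows each. Some rows of different names also held nearly the same reads, such as miR-486-5p and miR-3107-3p or miR-24-3p and miR-3074-5p. The 316 are therefore not all independent miRNAs. Of these, 31 (9.72%) differed by 2-fold or more between ΔmiR-19 and wild type, with 11 (3.45%) higher and 20 (6.27%) lower in ΔmiR-19. With plain read totals the split was 19 higher and 15 lower. It was 12 and 17 with totals outside the cluster, 11 and 19 with median-ratio factors, and 10 and 20 (of 318) with TMM factors. The excess of lower miRNAs thus turned with plain totals and stayed under the other scalings. The same count against wild type was 22 (6.9%) in ΔmiR-17 and 45 (14.1%) in ΔmiR-92. It was 47 (14.7%) in ΔmiR-18, 77 (24.1%) in ΔmiR-17,18, 49 (15.4%) in ΔmiR-17,18,92 and 53 (16.6%) when all families were deleted. ΔmiR-19 thus had the second-lowest count of the 7 mutants, all set against the same wild-type library. The median log2 ratio over the 319 was 0.05, with 173 higher and 146 lower.

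**Figure D2:**
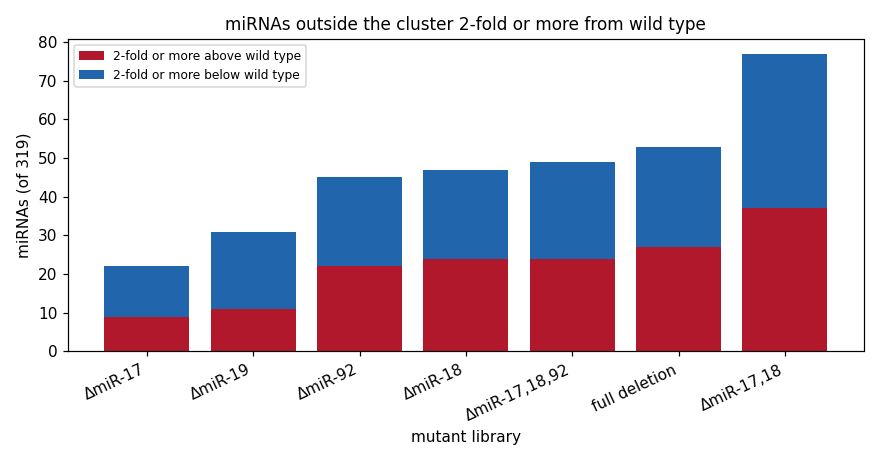
Number of miRNAs outside miR-17~92 (of 319 averaging 100 nRPM or more) that differed by 2-fold or more from wild type in each of the 7 mutant libraries, stacked by direction. ΔmiR-19 has 31 (11 higher, 20 lower), between ΔmiR-17 with 22 and ΔmiR-92 with 45.

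Neither limma nor edgeR called a miRNA outside the cluster when all 8 libraries were fitted, whereas DESeq2 made 1 and 2 calls. With the other 6 libraries as the spread, limma called 0 of 538 rows (534 distinct names) averaging 10 nRPM or more (0%) at an adjusted p of 0.05, with 18 at an unadjusted p under 0.05. The quasi-likelihood test of edgeR, run on recovered reads, called 0 (15 unadjusted). DESeq2 called 1 (0.186%), miR-3081-3p, lower in ΔmiR-19 (DESeq2 log2 -2.53, adjusted p = 0.0414). That miRNA had 132.5 nRPM in wild type, 22.7 nRPM in ΔmiR-19 and 23.8 to 45.9 nRPM in the other 6. Wild type was the library that stood apart.

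A model with a term for each deleted family, in which ΔmiR-19 and the full deletion both carry the miR-19 term, likewise gave 0 of 538 calls in limma (0%; 17 at an unadjusted p under 0.05). edgeR called 0 (18 unadjusted). DESeq2 called 2 (0.372%), both with a fitted term lower without miR-19: let-7e-5p (adjusted p = 0.0354) and 1 of the rows of miR-219-5p (adjusted p = 0.0365). That row of miR-219-5p was itself low where the cluster was intact, with 34.9 nRPM for wild type. ΔmiR-19 (27.6 nRPM) and the full deletion (21.6 nRPM) lay not far below. Mutants that kept miR-19 ranged higher, from 52.7 to 190 nRPM. limma's lowest adjusted p was 0.484, that of let-7e-5p, with a log2 term of -1.47 ± 0.37 (SE).

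In most of the 31 miRNAs that differed by 2-fold, wild type was the outermost library. The 31 were picked by the ratio of ΔmiR-19 to wild type, which favours these libraries at the edge. Over all 319, wild type was outermost in 23.5% and ΔmiR-19 in 21.6%. Of the 11 higher in ΔmiR-19, wild type was the outermost of the 8 libraries in 6 and ΔmiR-19 in 1, miR-675-5p, with both outermost for that miRNA. Of the 20 lower, wild type was outermost in 12 and ΔmiR-19 in 4, namely let-7e-5p, miR-181c-5p, miR-379-5p and the lower row of miR-194-5p. In 5 of the 11 and 4 of the 20, neither library was outermost. ΔmiR-19 lay within the range of the other 6 for 10 of the 11 and for 15 of the 20. Against the median of the other 6, ΔmiR-19 differed by 2-fold in 27 miRNAs (8.46%; 8 higher, 19 lower), as many as wild type did. The counts of 31 and 27 had 6 rows in common, which were let-7e-5p, miR-145-5p, miR-181c-5p, miR-379-5p and both rows of miR-194-5p. Among the 27, miR-337-5p and miR-3544-3p had nearly the same levels (224 and 223 nRPM in ΔmiR-19).

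In 6 of the 12 highest ratios to wild type, wild type was the lowest of the 8 libraries. miR-302c-3p, from a cluster active in pluripotent cells, had 55.8 nRPM in wild type and 287 nRPM in ΔmiR-19, a ratio of 5.15 (4.61 to 5.77). The other 6 libraries held 185 to 388 nRPM, with a median of 235, so ΔmiR-19 was inside their range and wild type the lowest of 8. miR-675-5p, processed from the imprinted H19 transcript, had 37.6 and 131.8 nRPM, a ratio of 3.51 (3.05 to 4.04), with 73.2 to 131.6 nRPM in the others. miR-122-5p, the hepatocyte miRNA, stood at a ratio of 3.24, with 69.4 nRPM in wild type, 225 nRPM in ΔmiR-19 and 71.0 to 271 nRPM in the others. The next, miR-542-3p of the X-linked region of miR-322 and miR-503, stood at 2.55, with 634 and 1614 nRPM. Between 1.98 and 2.51 lay miR-467e-5p, miR-433-5p, miR-7a-5p, miR-145-5p, miR-30b-3p, miR-293-3p, miR-140-5p and miR-674-5p. Among these, miR-145-5p of smooth-muscle lineages had 967 nRPM in wild type, 2168 nRPM in ΔmiR-19 and a median of 826 nRPM in the other 6 (599 to 2276).

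In 7 of the 12 lowest ratios, wild type was the highest of the 8 libraries. miR-455-5p, expressed in cartilage, had 653.9 nRPM in wild type and 142.7 nRPM in ΔmiR-19, a ratio of 0.218 (0.205 to 0.232), with 84.2 to 633 nRPM and a median of 165 nRPM in the other 6. miR-293-5p and miR-295-3p, both of 1 cluster active in embryonic stem cells, stood at 0.241 and 0.259 with ΔmiR-19 inside the others' range. The partner arm miR-293-3p lay the other way at 2.12. miR-101a-3p, a repressor of Ezh2, had 5172 nRPM in wild type, 1532 nRPM in ΔmiR-19 and 801 to 4024 nRPM in the others. miR-199a-5p of mesenchyme stood at 0.334, with 2277 and 761 nRPM and 627 to 6517 nRPM in the others. miR-361-3p, miR-494-3p, miR-758-3p and miR-450a-5p lay between 0.361 and 0.388, each inside the range of the other 6. For miR-450a-5p the direction turned with the reference. It had 1724 nRPM in wild type and 668 nRPM in ΔmiR-19, but a median of 240 nRPM in the other 6, so ΔmiR-19 stood at 2.79 times that median.

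**Figure D3:**
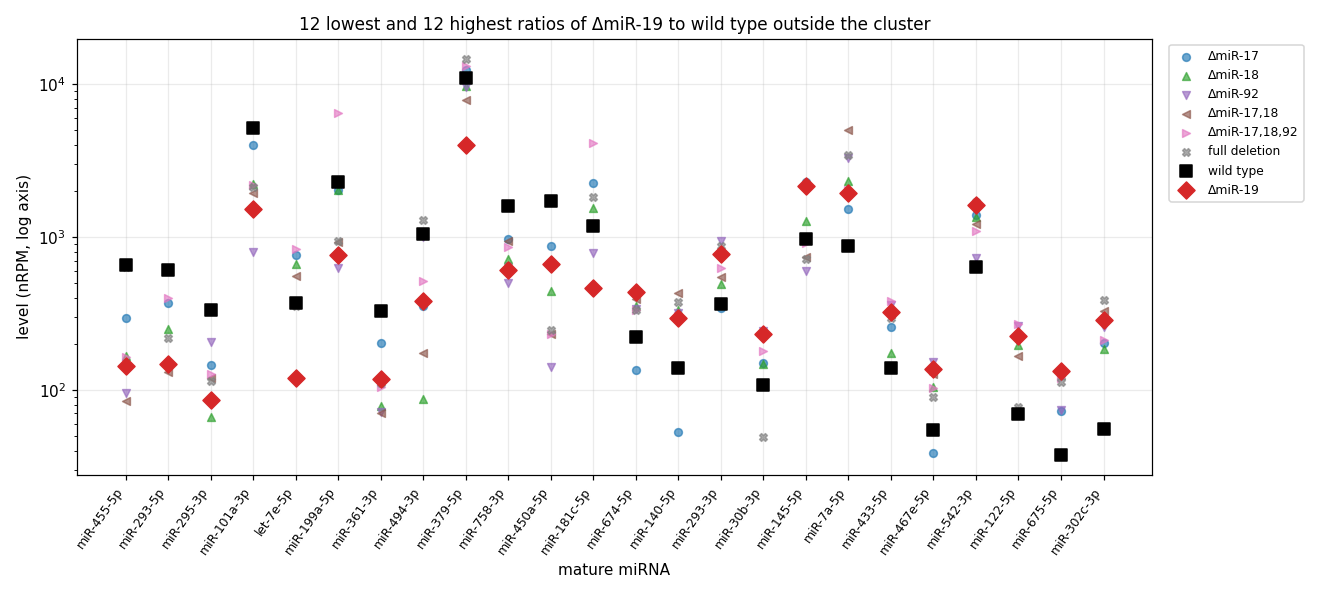
Levels in nRPM (log axis) in the 8 genotype libraries of the miRNAs outside the cluster with the 12 lowest (left) and 12 highest (right) ratios of ΔmiR-19 (red diamonds) to wild type (black squares). ΔmiR-19 lies below the other libraries for let-7e-5p, miR-379-5p and miR-181c-5p, while for miR-302c-3p at the far right wild type lies below all others.

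let-7e-5p, miR-379-5p and miR-181c-5p were the 3 of the 12 lowest ratios in which ΔmiR-19 lay below all 7 other libraries. The sequences of the first and the second are given with the seed in capitals. On GRCm38.p6, let-7e-5p lies on chromosome 17 (plus strand, 17830366 to 17830387) and miR-379-5p on chromosome 12 (plus strand, 109709065 to 109709085).

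let-7e-5p: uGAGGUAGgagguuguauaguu

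miR-379-5p: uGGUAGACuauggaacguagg

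let-7e-5p had 1136 reads in ΔmiR-19 and 2352 in wild type, at 119 and 368 nRPM, a ratio of 0.324 (0.302 to 0.348). The other 6 libraries held 355 to 829 nRPM with a median of 611 nRPM, the lowest of them being the full deletion, the other library without miR-19. The let-7 family, which promotes differentiation and opposes Lin28, was otherwise level or above wild type: the 5 other let-7 guides averaging 100 nRPM or more had ratios of 1.09 to 1.401. From the same precursor, miR-99b-5p stood at 1.14 and miR-125a-5p at 0.827, both inside the range of the other 6.

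miR-379-5p, from the imprinted Dlk1-Dio3 region, had 10919 nRPM in wild type and 4017 nRPM in ΔmiR-19, a ratio of 0.368 (0.363 to 0.373). The other 6 held 7827 to 14689 nRPM, so all 7 lay well above ΔmiR-19. The partner arm from the same hairpin, miR-379-3p, stood at a ratio of 1.61. Over the 69 miRNAs of Dlk1-Dio3 averaging 100 nRPM or more, 34 were higher and 35 lower than wild type, with a median log2 of -0.02 beside 0.05 over all 319. miR-181c-5p had 1188 nRPM in wild type, 461 nRPM in ΔmiR-19 and 783 to 4153 nRPM in the other 6, a ratio of 0.388 (0.374 to 0.403).

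Counting in all 319 miRNAs, ΔmiR-19 was the highest of the 8 libraries in 40 (12.5%) and the lowest in 29 (9.09%). It was outermost in 69 (21.6%), wild type in 75 (23.5%) and the full deletion in 106 (33.2%). The shares were 19.1% for ΔmiR-18, 20.7% for ΔmiR-17, 21.9% for ΔmiR-17,18,92, 27.6% for ΔmiR-92 and 32.3% for ΔmiR-17,18. The share of ΔmiR-19 was below that of 5 of the other 7 libraries, a difference that was not tested. The miRNAs in which it lay furthest above the rest were chosen by this distance, and they are described without a test.

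miR-182-5p and miR-183-5p, of a cluster known from sensory organs that also holds miR-96, were among them. Their sequences, with the seed in capitals, are shown with that of the third guide of the cluster. They lie on the minus strand of chromosome 6, miR-182-5p at 30165962 to 30165986 and miR-183-5p at 30169711 to 30169732.

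miR-182-5p: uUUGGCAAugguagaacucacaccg

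miR-183-5p: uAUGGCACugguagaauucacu

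miR-96-5p: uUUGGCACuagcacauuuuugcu

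miR-182-5p stood at 9092 nRPM in wild type and 14402 nRPM in ΔmiR-19, with 4438 to 8388 nRPM in the other 6, a ratio of 1.58 (1.57 to 1.60). miR-183-5p had 6597 and 8967 nRPM, with 5237 to 6905 nRPM in the others, a ratio of 1.36 (1.34 to 1.38). The third guide, miR-96-5p, did not stand apart, at 1056 and 912 nRPM with 588 to 1280 nRPM in the others. Summed over its 6 arms, the cluster held 16908 nRPM in wild type, 24427 nRPM in ΔmiR-19 and 11556 to 15349 nRPM in the others. ΔmiR-19 was the highest of 8 in this sum under all 5 scalings. Most of the sum was miR-182-5p and miR-183-5p, which had been chosen for their distance, so it adds little to them. Of the scarce partner arms, miR-182-3p (52.8 nRPM in wild type, 21.9 nRPM in ΔmiR-19) and miR-96-3p (37.9 and 15.5 nRPM) were lower. The remaining arm, miR-183-3p, was higher (72.2 and 108 nRPM).

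miR-217-5p had 100.1 nRPM in wild type and 174 nRPM in ΔmiR-19, a ratio of 1.74, while the other 6 lay in the narrow range of 85.8 to 106.3 nRPM. miR-302c-5p, the partner of miR-302c-3p, had 148 and 257 nRPM with 94.6 to 159 nRPM in the others. miR-10a-3p had 391 and 749 nRPM with 278 to 612 nRPM in the others. These 3 stood clear of all 7 other libraries. miR-128-3p of neurons, miR-205-5p of epithelia and miR-484 stood at ratios of 1.25 to 1.33 and were the highest of 8 as well.

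On the low side, miR-367-3p, which shares the seed of miR-92a, had 285 nRPM in wild type, 162 nRPM in ΔmiR-19 and 489 to 2211 nRPM in the other 6. Both libraries of the comparison were thus below the rest, and the ratio to wild type of 0.568 compares the lowest library with the next-lowest. miR-376a-5p, miR-22-3p, miR-30b-5p and miR-26b-5p stood at ratios of 0.560 to 0.643, each the lowest of 8. For miR-26b-5p the levels were 3658 nRPM in wild type, 2354 nRPM in ΔmiR-19 and 3951 to 6829 nRPM in the other 6.

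**Figure D4:**
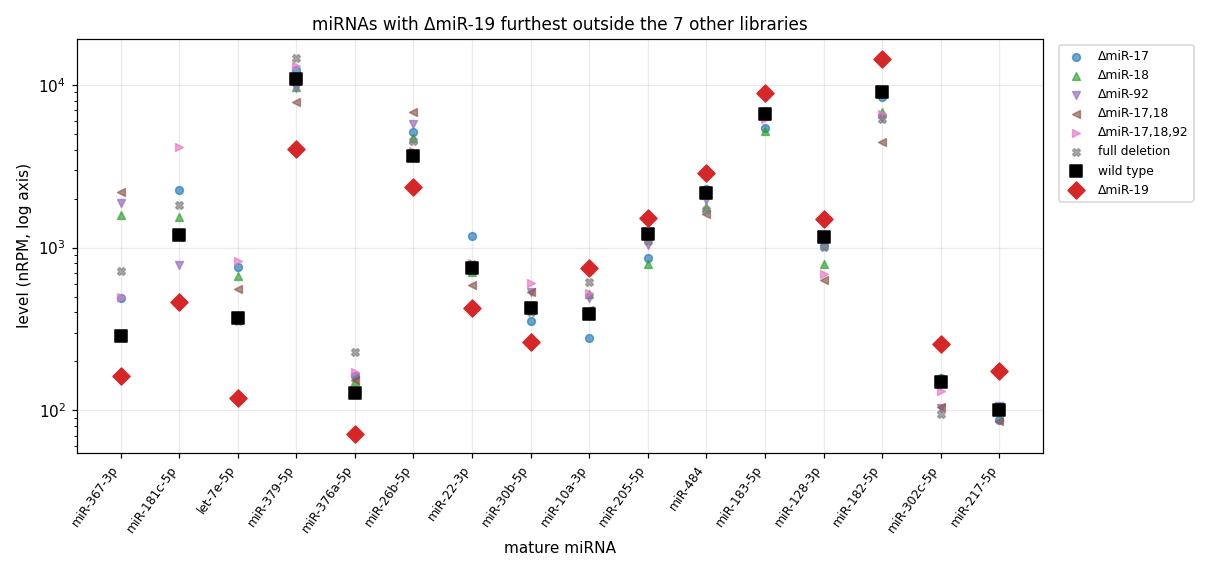
Levels in nRPM (log axis) in the 8 genotype libraries of the 16 miRNAs outside the cluster in which ΔmiR-19 (red diamonds) lay furthest below (8 on the left) or above (8 on the right) the other 7 libraries. Wild type is the black square; for miR-367-3p it lies next to ΔmiR-19 and below the other 6.

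Lists of miRNAs with a shared locus or cell type were set beside the counts over all 319, of which 173 were higher than wild type. Of 6 miRNAs encoded in the Hox clusters, which mark position along the body axis, all were above wild type in ΔmiR-19 (7 rows, with miR-196a-5p listed in 2), and ΔmiR-19 was the highest of 8 in 4 of them. The largest, miR-10b-5p, had 35292 nRPM in wild type and 46569 nRPM in ΔmiR-19, with 32179 to 39436 nRPM in the others. Over all 10 rows of the list, the sum of 78644 nRPM exceeded wild type (65711 nRPM) and the other 6 (56355 to 65410 nRPM), under all 5 scalings. In the miR-181 family, known from lymphocytes and also present in embryos, 5 of 6 miRNAs were below wild type (6 of 7 rows, with miR-181b-5p listed in 2). Both rows of miR-181b-5p were close to wild type, with 3073 beside 3125 nRPM and 2516 beside 2654 nRPM. miR-181a-5p had 4658 nRPM in wild type, 3092 nRPM in ΔmiR-19 and 3401 to 12697 nRPM in the others. The family's sum of 11068 nRPM over 11 rows was the lowest of 8 under all 5 scalings, beside 13937 nRPM in wild type and 12132 to 29115 nRPM in the others.

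Of the family of miR-130 and miR-301, 5 of 5 miRNAs were higher than wild type with a summed ratio of 1.46. The sum of 24247 nRPM over 8 rows lay inside the 20138 to 30633 nRPM of the other 6, and wild type with 16647 nRPM was the lowest of 8. Of the muscle and heart list, 0 of the 4 rows averaging 100 nRPM or more were higher. Of these 4, miR-133a-3p (285 nRPM beside 427 nRPM in wild type) and miR-206-3p (75.4 beside 107.8 nRPM) were the lowest of 8. The other rows, miR-1a-3p and miR-1b-5p, had the same reads. Not among the 4 were the heart-enriched miR-208a-3p and miR-499-5p, which were higher than wild type as given above. The list's sum over 17 rows was 5643 nRPM in wild type and 5068 nRPM in ΔmiR-19, inside the 3879 to 11199 nRPM of the others. Blood-cell miRNAs were higher in 6 of 7 rows, with the sum of 4178 nRPM over 11 rows inside the 2122 to 4459 nRPM of the others. The endothelial miR-126 arms stood at 1.15 (3p) and 0.834 (5p). In the epithelial miR-200 family, 2 of 5 were higher, and miR-429-3p had 1566 and 765 nRPM, with 439 to 1537 nRPM in the others. The part of cell composition in any of these values was not tested.

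A second loss of miR-19 in the series shares no library with the comparison above: the full deletion differs from ΔmiR-17,18,92 by lacking miR-19 as well. This comparison was added after the data had been seen. Over the 319 miRNAs outside the cluster, Pearson's r between the log2 ratios of both losses was 0.01 and Spearman's rho 0.05. These describe miRNAs, which are not independent and share each library's depth. In the first comparison 173 of the 319 were higher, and in the second 174 (54.5%). In the second comparison 42 of the 319 (13.2%) differed by 2-fold or more, 19 (5.96%) higher and 23 (7.21%) lower in the full deletion. The direction was the same as in the first comparison for 176 of the 319 (55.2%). Of the 42, 20 lay the same way as in the first comparison and 22 the opposite way. Among the 20, miR-299-3p and miR-299b-5p had nearly the same values. Of the 11 miRNAs higher by 2-fold in ΔmiR-19, 5 (45.5%) had the same direction in the second loss. In that set 0 reached 2-fold the same way and 2 the opposite way. Of the 20 lower, 9 (45.0%) had the same direction. Here 2 reached 2-fold the opposite way and 4 the same way.

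Those 4 were let-7e-5p, miR-181c-5p, miR-199a-5p and miR-429-3p. let-7e-5p had 829 nRPM in ΔmiR-17,18,92 and 355 nRPM in the full deletion. In the same order miR-181c-5p had 4153 and 1822 nRPM, miR-199a-5p had 6517 and 939 nRPM and miR-429-3p had 1145 and 479 nRPM. For let-7e-5p, miR-181c-5p and miR-199a-5p, ΔmiR-17,18,92 was the highest of the 8 libraries, so the second ratio rests on that library. miR-455-5p, lowest in ratio in the first comparison, lay the other way in the second, with 162.9 nRPM in ΔmiR-17,18,92 and 633 nRPM in the full deletion. miR-182-5p and miR-379-5p, which stood apart in ΔmiR-19, did not differ by 2-fold in the second loss.

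**Figure D5:**
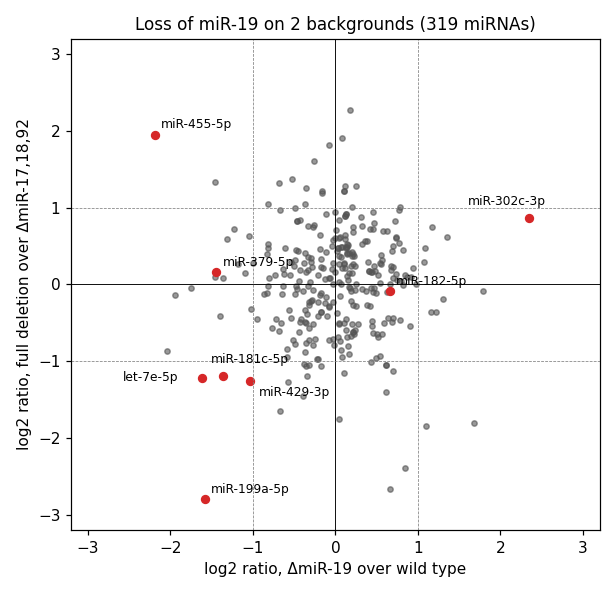
Log2 ratios (pseudocount 1 nRPM) of 319 miRNAs outside the cluster for ΔmiR-19 over wild type (horizontal) and for the full deletion over ΔmiR-17,18,92 (vertical), with 8 miRNAs of the text in red and dashed lines at 2-fold. The cloud has no slope (r of 0.01), and let-7e-5p, miR-181c-5p, miR-199a-5p and miR-429-3p lie in the lower left.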

How the data were processed

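Small RNA was extracted with Trizol per the labels' protocols. Alignment and counting tools in the submitters' processing notes are STAR (2.2.0), featureCounts from Subread (1.4.2) and SAMtools (0.1.19), on mm9, without parameters. The treatment of reads that map to several places was not given in these sources. The deposited signal values are reads divided by 1 size factor per library by the authors. All of them (100%) were whole multiples of 1 read within 0.001 reads, so reads were recovered. The count tests on these reads were edgeR and DESeq2, with the calls given above. Of 1046 rows, where those of 1 accession differed by 10% or less in total reads, only the row with the most reads was kept. This left 986. miR-19b-3p had 2 such rows, with 171706 and 170671 reads in wild type and 14648 and 14527 reads in ΔmiR-19.

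Deposited values were multiplied by 0.1159 to give nRPM, and log2 values had a pseudocount of 1 nRPM. limma 3.58.1 (trend) tested ΔmiR-19 minus wild type with the other 6 genotypes as 1 group (5 residual degrees of freedom, the lone libraries being assumed to vary like these) and, separately, additive terms for the 4 families (3 residual degrees of freedom). edgeR 4.0.16 and DESeq2 1.42.0 were alternatives, with Benjamini-Hochberg adjustment in all. Of the rows of miR-92a-3p, the higher was counted with the cluster and the lower left out. A sequence was matched for 773 of 986 rows. Cluster arms, 27 lists, the 12 highest and lowest ratios, the 8 furthest outliers each way, up to 5 calls per direction and the 2 most abundant members per list could be named, with an average of 100 nRPM and 20 reads required for ratios. The cluster, the lists and these rules were chosen with earlier results of these data known.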

Additional observations from a re-analysis of the deposited data

How the results depend on the processing

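No genotype had a replicate, so no result has a check between embryos, and the spread came from libraries that differ in genotype. No paired analysis was possible because each group holds 1 library and the shared number marks no pair. The miR-19 arms kept 4.81% of wild type with plain read totals and 4.36% with totals outside the cluster. The median log2 of kept arms was 0.51, 0.36 and 0.34 with plain totals, totals outside the cluster and median-ratio factors of the 8 libraries. Plain totals gave 19 miRNAs 2-fold higher and turned the summed log2 of miR-106b~25 to 0.0039. The totals under the deposited scaling were 1107490 nRPM in wild type and 976957 nRPM in ΔmiR-19. Plain totals set them equal and so raised all ratios of ΔmiR-19 to wild type alike. Why the totals differed was not tested.

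With an average of 10 nRPM or more, 76 miRNAs differed by 2-fold (26 higher, 50 lower) and ΔmiR-19 was highest in 64 and lowest in 57, since more miRNAs were counted. With 500 nRPM or more, 15 differed (4 higher, 11 lower), since fewer were counted. DESeq2 called 1 and 2 miRNAs in the fit with the spread of 6 and in the miR-19 term. Each of the other 6 libraries was left out in turn from both limma fits, while wild type and ΔmiR-19 were never left out. A call came in 1 of these refits, for the miR-19 term. The 1 call, without ΔmiR-92, was miR-199a-5p (limma adjusted p = 0.0222). Over all limma alternatives, the lowest adjusted p lay between 0.106 and 0.997 in the first fit and between 0.0222 and 0.983 for the miR-19 term. Of 45 single miRNAs with 270 recomputed values, 0 reversed. This was nearly fixed beforehand, since each scaling shifts all log2 ratios alike. The 45 were kept arms or had been picked for their distance from wild type or from the other libraries. Sizes did move: with plain totals the log2 ratio of miR-17-5p went from 0.31 to 0.49 and that of miR-20a-5p from -1.16 to -0.98.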

Other observations

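The arms of some hairpins lay on opposite sides of wild type in ΔmiR-19, though hairpins were not counted for this. In miR-293 the 3p arm stood at a ratio of 2.12 and the 5p arm at 0.241. In miR-376a, of the Dlk1-Dio3 region, the 3p arm had 1602 nRPM in wild type and 2988 nRPM in ΔmiR-19, while the 5p arm had 128.1 and 71.7 nRPM. The X-linked neighbours miR-542-3p and miR-450a-5p, from separate hairpins, stood at ratios to wild type of 2.55 and 0.388, though miR-450a-5p was above the median of the other 6. miR-322-5p of the same region was the lowest of 8 in ΔmiR-19 with 945 nRPM, close to the 967 nRPM of wild type, while the other 6 held 1102 to 2991 nRPM. In miR-423-5p both libraries of the comparison (590 nRPM in wild type, 702 nRPM in ΔmiR-19) lay above the other 6, which held 107.2 to 575 nRPM. The hypoxia-responsive miR-210-3p was the highest of 8 in ΔmiR-19, with 3145 nRPM beside 1934 nRPM in wild type and 2095 to 3082 nRPM in the others.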
